A study of Mus musculus with 10 samples.

Results

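The genes described here are 9 genes that mark B lymphocytes, read by symbol from a table of 20813 genes measured in leukemic mouse spleen: Cd79a, Cd79b, Ms4a1, Pax5, Ebf1, Cr2, Cd22, Ighm and Ighd. All 9 were found, and all 9 had a mean normalized count of at least 10, so that all were tested. The samples are labelled with the strain C57BL/6, and the spleens came from sub-lethally irradiated recipients given, by vein, a T-cell acute lymphoblastic leukemia (T-ALL, a cancer of immature T cells) carrying a conditional Sirt1 allele. One group of 5 samples is labelled Sirt1-deleted and the other group of 5 is labelled control. Per the labels' protocols, mice were given tamoxifen at 3 mg per mouse in corn oil by intraperitoneal injection, or corn oil alone, and the abbreviations in the titles (TMX and VEH) split the 10 samples in the same way as their genotype labels. A T-ALL with the conditional allele, irradiation and corn oil were therefore common to both groups, while label and injected agent cannot be told apart. The driver of the recombinase and the number of leukemias behind the 10 samples are not given in the sources used here. The p-values of group differences therefore set them against the spread between these samples, and cannot speak for other leukemias. Spleens were pressed into single-cell suspensions and red blood cells were lysed before RNA isolation.

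B cells recognise antigen through the B cell receptor, a membrane-bound immunoglobulin paired with the signalling chains CD79A and CD79B. EBF1 and PAX5 are the transcription factors that establish and keep B cell identity, and CD20 (Ms4a1), CD21 (Cr2) and CD22 are surface proteins of mature B cells. In normal spleen such cells fill the follicles, whereas antibody-secreting plasma cells lose most of these surface proteins and make large amounts of light chain, heavy chain and J chain. In a bulk sample, fewer cells of a type and less RNA per cell cannot be told apart.

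The deposited normalized counts summed to similar totals in all samples, from 33.7 to 34.5 M. Sirt1 itself had normalized counts of 1715 to 2097 in the samples labelled Sirt1-deleted and 1735 to 1909 in controls, with a log2 difference of 0.05 (SE 0.06, limma adjusted p = 0.568). The labels do not say which part of the gene the allele removes, and a value for the whole gene cannot show it; the group is called labelled Sirt1-deleted here. Markers of T cells, the labelled leukemia type, were abundant: the 12 listed T lineage genes together held 140842 to 156681 normalized counts in controls and 162459 to 199676 in labelled Sirt1-deleted samples. Of the 12, Thy1 and Cd3d rose (limma adjusted p = 0.00510 and 0.0170), Cd5 and Cd8b1 fell (limma adjusted p = 1.04e-04 and 5.81e-04), and the median log2 difference was 0.01. Among all genes tested, 36.1% had a limma adjusted p under 0.05. Thy1 alone held 60175 to 100216 normalized counts in labelled Sirt1-deleted samples and 47867 to 57490 in controls.

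Of the 9 B cell genes, 0 passed the threshold between labelled Sirt1-deleted and control samples (limma, Benjamini-Hochberg adjusted p under 0.05), whereas 36.1% of the 15276 genes tested did. At an unadjusted p under 0.05 there were 2 (Cd79a and Pax5), against 46.3% of all genes tested. The groups' values overlapped for all 9 genes, while they did not overlap for 24.0% of all genes tested. An exact rank-sum test adjusted over all genes called 0 of the 9, which only restates this overlap. With 5 samples per group it called the 3659 genes whose groups did not overlap and no others. A call lost with that test below therefore means that the groups overlapped. The log2 difference was above 0 for 7 of the 9 and below 0 for Ms4a1 and Cr2, and its median was 0.11, where the median of all genes tested was -0.00014. The intervals of single genes were wide, so that these values do not show equal expression.

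**Figure D1:**
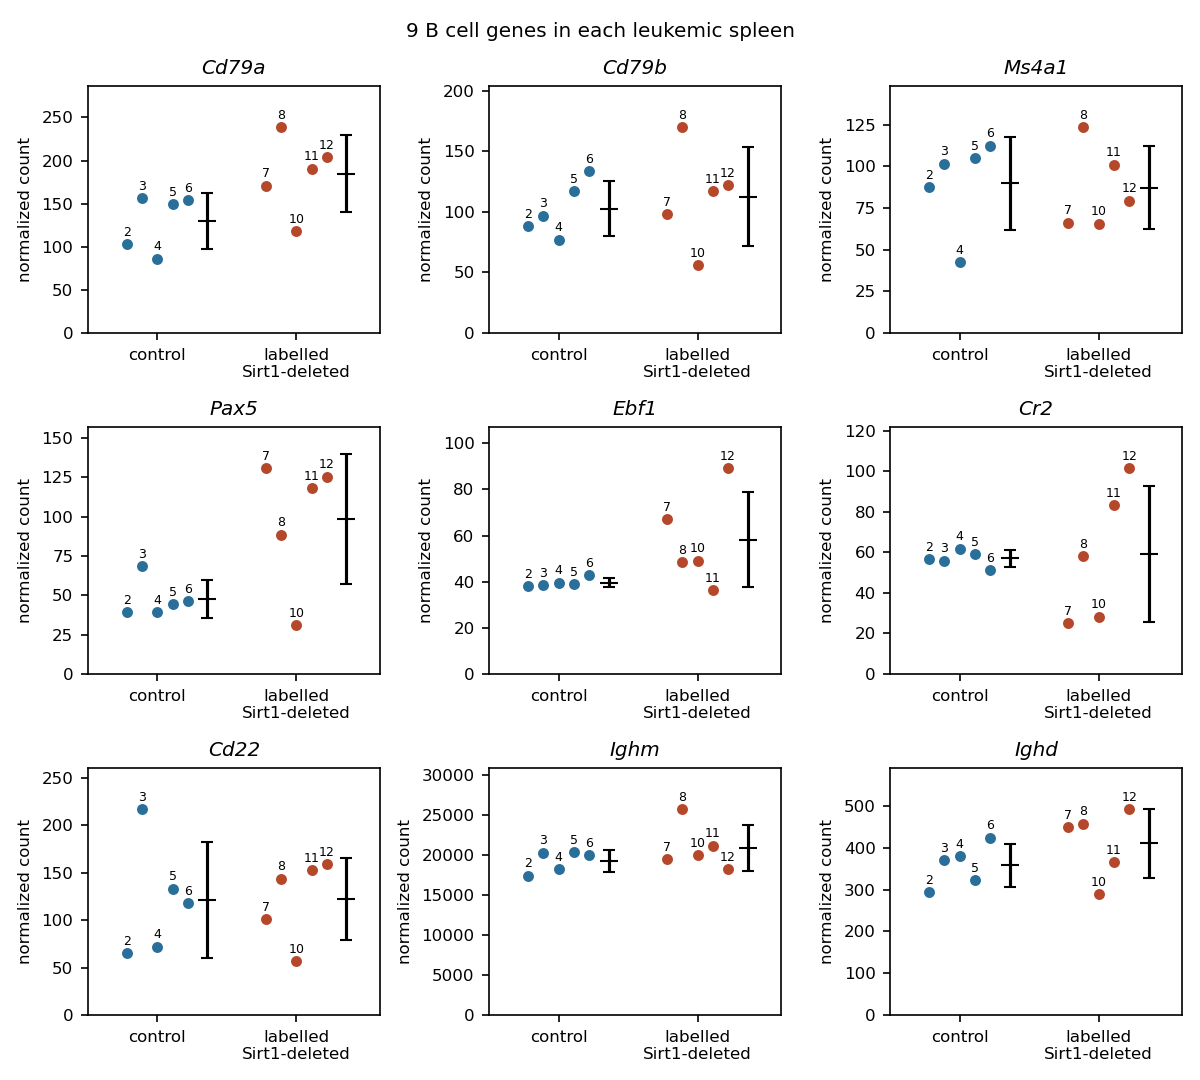
Normalized count (vertical axes, from 0) of the 9 B cell genes in each leukemic spleen, with points numbered by replicate, and bars giving mean ± SD of 5 samples per group. The groups overlap in every panel, and labelled Sirt1-deleted replicate 10 is the lowest point of its group in 6 of the 9.

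The transcription factor genes and one receptor chain had the largest differences. Pax5, which represses genes of other lineages and activates B cell genes, measured 131, 88.6, 30.9, 118 and 125 normalized counts in labelled Sirt1-deleted replicates 7, 8, 10, 11 and 12, and 39.2, 68.4, 39.3, 44.4 and 46.3 in control replicates 2 to 6. Thus 4 of the 5 labelled Sirt1-deleted samples lay above every control and the remaining one, replicate 10, lay below every control. The means were 98.7 ± 41.3 and 47.5 ± 12.1 (SD, n = 5 each), and the log2 difference of 0.91 (SE 0.35, 95% interval 0.16 to 1.67) missed the threshold (limma adjusted p = 0.0577). It passed without replicate 10 (1.28, limma adjusted p = 7.29e-04), without control replicate 3 (1.05, limma adjusted p = 0.0472) and with sample weights (1.02, limma adjusted p = 0.0116). GENCODE marks the Pax5 locus as overlapping another, which adds uncertainty to its count.

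Ebf1, which opens the B cell programme in progenitors and is also expressed by stromal cells, was nearly constant in controls, at 38.0, 38.4, 39.6, 38.9 and 42.9 normalized counts. In labelled Sirt1-deleted samples it measured 67.2, 48.6, 49.1, 36.5 and 89.2 in the same replicate order. Again 4 samples exceeded every control, but here the exception was replicate 11. The log2 difference was 0.48 (SE 0.22, limma adjusted p = 0.113), and it passed without replicate 11 (0.63, limma adjusted p = 0.0353).

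Cd79a encodes the Ig-alpha chain of the receptor. It measured 171, 239, 118, 191 and 204 normalized counts in labelled Sirt1-deleted samples and 103, 157, 86.1, 149 and 154 in controls. All labelled Sirt1-deleted samples except replicate 10 exceeded the highest control. The means of 185 ± 44.6 and 130 ± 32.8 (SD, n = 5 each) gave a log2 difference of 0.51 (SE 0.21, 95% interval 0.04 to 0.97) that missed the threshold (limma adjusted p = 0.0807), and that passed without replicate 10 (0.66, limma adjusted p = 0.0174).

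Cd79b encodes the partner chain Ig-beta. Its normalized counts were 98.2, 170, 56.2, 117 and 122 in labelled Sirt1-deleted samples and 88.4, 97.0, 77.0, 117 and 134 in controls, so that most of the values interleaved. The log2 difference was 0.07 (95% interval -0.48 to 0.63, limma adjusted p = 0.848). The level of Cd79b as a percentage of that of Cd79a was 57.4, 71.2, 47.6, 61.3 and 59.9 in labelled Sirt1-deleted samples and 85.8, 61.9, 89.5, 78.6 and 86.9 in controls. The groups overlapped in control replicate 3 and labelled Sirt1-deleted replicate 8, each of which lay within the range of the other group. The log2 ratio of Cd79b to Cd79a was -0.75 ± 0.20 against -0.32 ± 0.22 (SD, n = 5 each), a difference of -0.43 (exact two-sided permutation p = 0.0159; p = 0.0317 after Benjamini-Hochberg adjustment over the 2 ratios examined). This ratio does not depend on the scaling between samples.

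Because the products of Ebf1 and Pax5 are known activators of Cd79a, the DNA just upstream of Cd79a and of Pax5 is shown. RefSeq's promoter table (GRCm38.p6) held 5 of the 9 genes, and the stretches of these 2 that lie upstream of every annotated start are printed. Capitals mark matches, on either strand, to AAGGGAAT, a known EBF1 recognition sequence of the Cd79a promoter, and to the E-box CANNTG bound by E proteins. The octamer ATGCAAAT of OCT factors and the ETS sequence CAGGAAGT were also searched and have no match in either stretch. The Cd79a stretch is chr7:24897247-24897380 on the plus strand, and the Pax5 stretch is chr4:44710695-44710944 on the minus strand, both written 5′ to 3′.
Cd79a: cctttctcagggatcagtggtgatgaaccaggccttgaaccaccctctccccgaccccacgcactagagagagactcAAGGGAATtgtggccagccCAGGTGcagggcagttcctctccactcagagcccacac
Pax5: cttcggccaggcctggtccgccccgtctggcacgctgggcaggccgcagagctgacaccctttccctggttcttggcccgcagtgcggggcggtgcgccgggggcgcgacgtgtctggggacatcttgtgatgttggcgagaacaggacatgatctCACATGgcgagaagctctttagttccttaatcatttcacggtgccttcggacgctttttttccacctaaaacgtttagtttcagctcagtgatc

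In the Cd79a stretch of 134 bases, AAGGGAAT begins at position 78 and the E-box at position 97, counted from the 5′ end. Among 32851 RefSeq promoter stretches of the same length and offset, 0.594% hold AAGGGAAT and 45.4% hold an E-box. The Pax5 stretch of 250 bases has an E-box at position 157 and no AAGGGAAT; stretches of that length hold them in 66.2% and 1.10% of cases. Since AAGGGAAT is known from the Cd79a promoter, its match there was fixed in advance, and its low share among promoters adds no support. No PAX5 recognition sequence was searched. A match describes letters only, and binding was not measured.

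The surface genes of mature B cells did not separate the groups. Ms4a1, which encodes CD20, measured 66.2, 124, 65.5, 101 and 79.4 normalized counts in labelled Sirt1-deleted samples and 87.4, 102, 42.5, 105 and 112 in controls. Its highest and lowest values thus lay in different groups, at labelled Sirt1-deleted replicate 8 and control replicate 4. The log2 difference was -0.01 (95% interval -0.59 to 0.57, limma adjusted p = 0.981), and its sign changed with upper-quartile rescaling.

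Cd22, which encodes an inhibitory co-receptor, spread widely in both groups, at 101, 144, 56.7, 152 and 159 normalized counts in labelled Sirt1-deleted samples and 65.0, 217, 72.1, 133 and 118 in controls. Control replicate 3 was the highest of all samples. The log2 difference of 0.06 (95% interval -0.69 to 0.81, limma adjusted p = 0.911) changed sign under quantile normalization and with sample weights.

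Cr2 encodes the complement receptor CD21 of mature B cells and follicular dendritic cells. In controls it kept to 56.6, 55.9, 61.9, 59.2 and 51.2 normalized counts, but in labelled Sirt1-deleted samples it measured 25.1, 58.1, 28.2, 83.2 and 101. Replicates 7 and 10 were below every control and replicates 11 and 12 above every control. The means were alike (59.2 ± 33.5 and 56.9 ± 4.01, SD, n = 5 each; log2 difference -0.15, limma adjusted p = 0.770), while the coefficient of variation was 56.6% against 7.04%. Of 10 listed markers of follicular dendritic and reticular cells, 5 were in the table and 4 were tested. Of these 4, Mfge8 and Pdgfrb fell and none rose, where 19.4% of all genes tested passed as lower. The 5 summed to 2442 to 3641 normalized counts in labelled Sirt1-deleted samples and 3620 to 4495 in controls. Mfge8 (means 1394 and 1742) and Pdgfrb (1459 and 2170) made up nearly all of these sums. Clu ranged from 7.44 to 195 and from 26.2 to 56.3 in the same order of groups and did not pass (limma adjusted p = 0.943). The listed genes Fdcsp, Cxcl13 and Madcam1 were absent. The part of such cells in the spread of Cr2 was not tested.

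The spread between mice differed from gene to gene. On the log2 scale, the SD was wider in labelled Sirt1-deleted samples for 6 of the 9 genes, as it was for 66.7% of all genes tested. The ratio of the 2 SDs was 8.79 for Cr2 and 7.16 for Ebf1, larger than for 99.7% and 99.5% of genes tested, and 2.65 for Pax5. The ratios of Cr2 and Ebf1 rest on very close control values. Their coefficients of variation in controls were 7.04% and 4.94%, at means of 56.9 and 39.6 normalized counts. Counting reads at such low levels alone spreads values more than this. These 2 control SDs, each of 5 samples, are therefore too small to be typical, and the ratios and ranks overstate the contrast. For Ms4a1, Cd22 and Cd79a the SD was wider in controls. Among labelled Sirt1-deleted samples, replicates 8 and 12 each were highest for 4 genes. Among controls, replicate 2 was lowest for 5 genes and replicate 4 for 3.

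The immunoglobulin heavy chain genes lie next to each other on chromosome 12 (mm10, GENCODE M21, minus strand): Ighm (ENSMUSG00000076617.9) spans 113418558 to 113422730, and Ighd (ENSMUSG00000104213.5) spans 113406604 to 113416324, 2233 bases apart. Mature B cells make IgM and IgD from both by alternative splicing of one transcript. Ighm measured 19498, 25729, 19944, 21187 and 18248 normalized counts in labelled Sirt1-deleted samples and 17407, 20297, 18265, 20352 and 20010 in controls. It varied less than any other of the 9 genes over all 10 samples, with a highest-to-lowest ratio of 1.48, where the others had ratios from 1.71 to 4.23. The log2 difference was 0.11 (SE 0.08, 95% interval -0.07 to 0.29, limma adjusted p = 0.315).

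Ighd measured 449, 457, 288, 366 and 492 normalized counts in labelled Sirt1-deleted samples and 294, 370, 380, 322 and 424 in controls. The groups overlapped, although 3 labelled Sirt1-deleted samples exceeded the highest control, and the log2 difference was 0.18 (SE 0.15, limma adjusted p = 0.352). Ighd amounted to 1.44% to 2.70% of Ighm in labelled Sirt1-deleted samples and 1.58% to 2.12% in controls. The log2 ratio of Ighd to Ighm differed by 0.07 (exact two-sided permutation p = 0.690), and its sign changed without labelled Sirt1-deleted replicate 12 (-0.05).

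**Figure D2:**
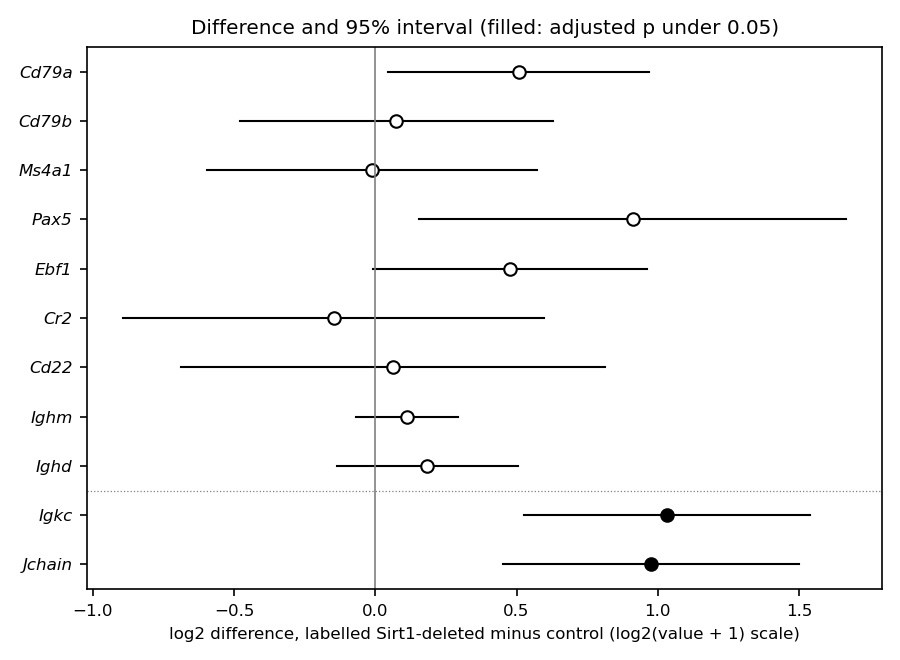
Log2 difference (horizontal axis, log2(value + 1) scale) with its 95% interval for the 9 B cell genes and, below the dotted line, Igkc and Jchain, which are not among them. Filled points have an adjusted p under 0.05: Igkc (1.03) and Jchain (0.98), and none of the 9.

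Levels were compared between genes per kb of the longest annotated transcript. Ighm stood apart from the rest, at 12321 ± 1700 normalized counts per kb where Sirt1 is labelled deleted and 11346 ± 793 in the control group (SD, n = 5 each). This is near the level of the T cell kinase gene Lck, at 14368 ± 988 and 13083 ± 612, and above that of the T cell receptor subunit gene Cd3e, at 4705 ± 665 and 4799 ± 189. This placing depends on the length used: per kb of the median transcript length, the means over the 10 samples were 43245 for Lck, 12594 for Ighm and 12247 for Cd3e. Next came Ighd, at 227 ± 45.7 and 198 ± 28.2 per kb, then Cd79a, at 127 ± 30.6 and 89.1 ± 22.5, and Cd79b, at 78.8 ± 28.8 and 71.7 ± 15.9. The order from Ighm through Ighd and Cd79a to Cd79b held in all 10 samples. Per kb, Ighm was between 76.7 and 182 times as high as Cd79a. The level of Ighm therefore did not run in proportion to that of the receptor chains, and whether its transcripts came from recipient B cells or from leukemic cells cannot be told apart in these samples.

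The remaining genes were lower per kb. Over the 10 samples, Cd22 averaged 30.6 and Ms4a1 28.8 normalized counts per kb, and they changed places in 5 of 10 samples. Cr2 (9.35), Pax5 (9.14) and Ebf1 (8.17) could not be ordered beyond their spread over all 10 samples. In controls alone Cr2 (9.17 ± 0.65 per kb) exceeded Ebf1 (6.62 ± 0.33; SD, n = 5 each) in every sample, while Pax5 averaged 5.94 in controls and 12.3 in labelled Sirt1-deleted samples. Their place depends on the length used: with the median transcript length, Pax5 had 72.6, Cr2 58.8, Cd22 96.4 and Ebf1 17.1 per kb, while the order of the top 3 was kept and Ighm was still 119 times as high as Cd79a in the median sample (111 with the longest transcript).

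**Figure D3:**
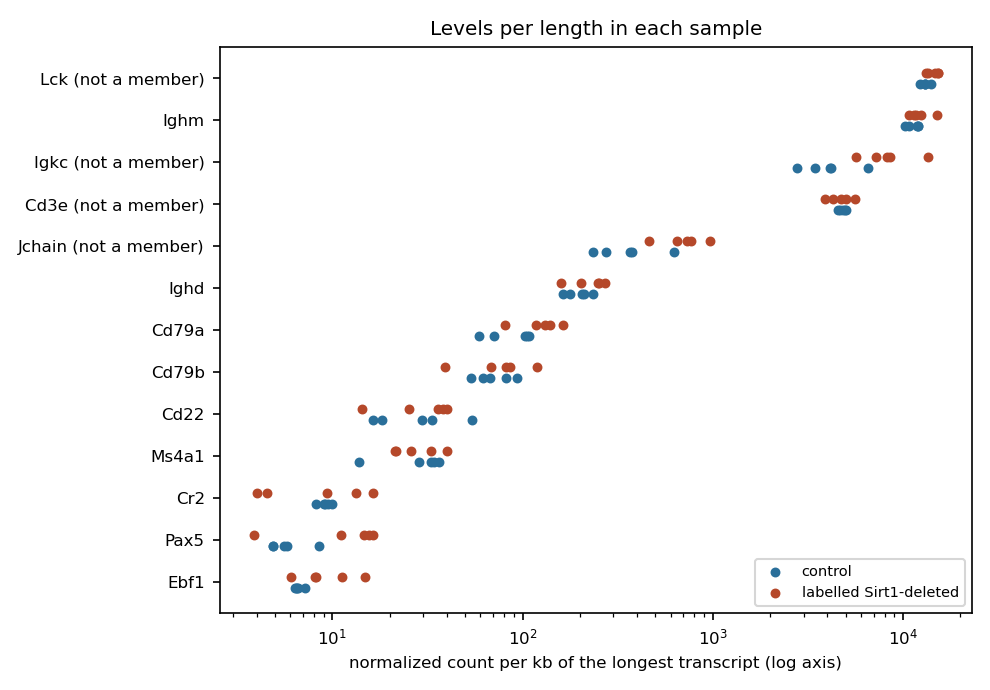
Normalized count per kb of the longest transcript (log axis) in each sample, for the 9 B cell genes and 4 genes shown for scale, ordered by their mean. Ighm lies between 10251 and 15153 per kb and the other B cell genes all lie at 272 or below. Lck lies beside Ighm with this length, but above it with the median transcript length (43245 against 12594).

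Across the 10 samples the B cell genes mostly had positive correlations, and the 4 negative ones all involved Ebf1 or Cr2. Pearson's r of log2 values was above 0 for 32 of the 36 pairs, with a median of 0.52, and above 0 for 34 after each group's mean had been subtracted. None of the 36 pairs passed by Pearson's r after Benjamini-Hochberg adjustment over the 66 pairs computed, which include pairs with other B lineage genes. Cd79a and Cd79b had r = 0.77 (permutation p = 0.00813, adjusted p = 0.0767; rho = 0.73, permutation p = 0.0201, adjusted p = 0.124). Here r was 0.65 without the 2 samples farthest from the median of Cd79a and 0.90 after subtracting group means. Cd79a and Pax5 had r = 0.79 (permutation p = 0.00679, adjusted p = 0.0747) and rho = 0.84 (permutation p = 0.00378, adjusted p = 0.0416). For this pair r was 0.86 without the 2 farthest samples and 0.67 after subtracting group means.

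Among the other genes tested, the 10 most like the B cell genes were ranked by the mean r with the 9 over the 10 samples, after subtracting group means. They were Prcc, Tagap, Grb10, Oas2, Slfn1, 2010300C02Rik, Art2b, Ciita, Gimap4 and Igkv14-126, with mean r from 0.64 to 0.66. Ciita, the activator of MHC class II genes, and the light chain segment Igkv14-126 are the B lineage genes in this group. Oas2 and Slfn1 are interferon-induced genes; they rose by 3.09 and 1.52 on the log2 scale (limma adjusted p = 8.47e-05 and 4.57e-04). With 10 samples such ranks are a description.

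Other genes of the B lineage were read from 7 lists with 89 genes, of which 82 were tested. Of these, 34 (41.5%) passed the threshold, 21 as higher and 13 as lower, against 36.1% of all genes tested (16.8% higher and 19.4% lower). Their median log2 difference was 0.14. With the exact rank-sum test the count was 20 of the 82, with 10 in each direction, where that test called 24.0% of all genes tested.

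Immunoglobulin constant genes other than the members were the list with the largest median log2 difference, 0.89. Of the 9 tested 5 passed as higher, none as lower, where 16.8% and 19.4% of all genes tested did. Igkc, the kappa light chain constant gene, measured 4362, 7237, 3026, 3819 and 4557 normalized counts in labelled Sirt1-deleted samples and 1476, 2231, 1835, 3496 and 2198 in controls. Labelled Sirt1-deleted replicate 10 was overlapped by control replicate 5, the highest control. Igkc rose by 1.03 (SE 0.23, limma adjusted p = 0.00564), as did the lambda gene Iglc1 by 1.10 (limma adjusted p = 0.00330, groups not overlapping) and the IgG gene Ighg2c by 1.07 (limma adjusted p = 0.00805). Iglc2 and Iglc3 also rose. Ighg1, Ighg2b, Ighg3 and the IgA gene Igha had log2 differences of 1.43, 0.74, 0.86 and 0.56 that did not pass, and Ighe was below the filter.

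Among 9 tested plasma cell genes, 3 passed as higher and Sdc1 as lower, where 36.1% of all genes tested passed. Jchain, which joins IgM and IgA into polymers, measured 1712, 2275, 1086, 1526 and 1795 normalized counts in labelled Sirt1-deleted samples and 549, 884, 640, 1467 and 861 in controls. It rose by 0.98 (SE 0.24, limma adjusted p = 0.00861), the chaperone gene Mzb1 by 1.16 (limma adjusted p = 0.00812) and Derl3 by 0.71 (limma adjusted p = 0.0367). Xbp1 and Prdm1, factors of secretory cells, did not pass. The calls of Igkc, Ighg2c, Jchain and Mzb1 were lost with the exact rank-sum test (adjusted p = 0.0512 for each), and that of Derl3 also under quantile normalization and in 7 of 10 fits without 1 sample. GENCODE marks Igkc and Mzb1 as overlapping other loci.

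Igkc and Jchain followed each other closely over the 10 samples: r = 0.98 and rho = 1 (permutation p = 1e-05 each, the smallest 100000 permutations can give, and adjusted p = 6.6e-04), with r = 0.99 without the 2 farthest samples and 0.96 after subtracting group means. Cd79a and Jchain had r = 0.87 (permutation p = 8.5e-04, adjusted p = 0.0281) and rho = 0.88 (permutation p = 0.00163, adjusted p = 0.0359), with r = 0.80 without the 2 farthest samples and 0.81 after subtracting group means. Ms4a1 and Jchain had r = 0.36 (permutation p = 0.3075, adjusted p = 0.423) and rho = 0.24 (permutation p = 0.515, adjusted p = 0.664), with r = -0.02 without the 2 farthest samples and 0.57 after subtracting group means.

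**Figure D4:**
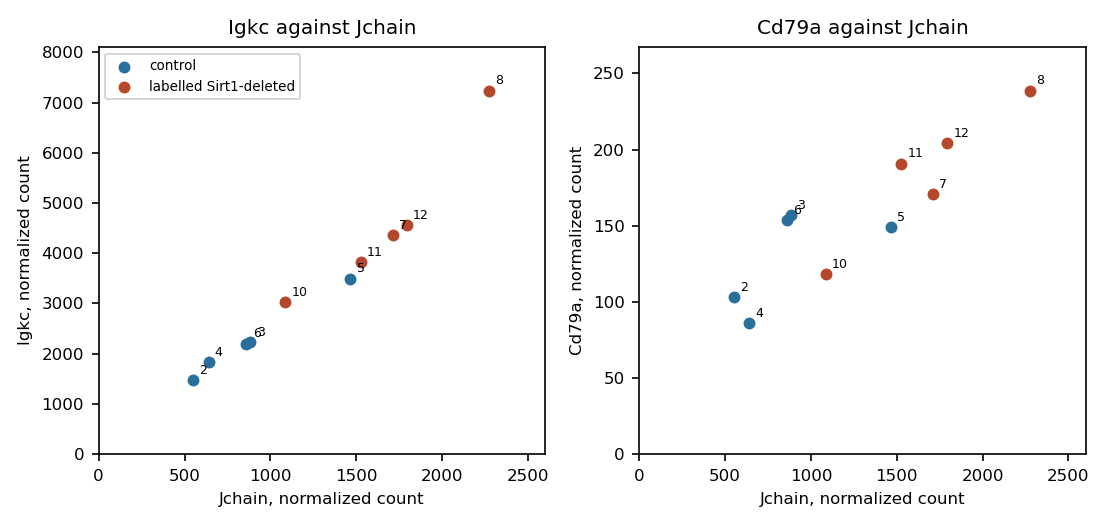
Normalized counts of Igkc (left) and Cd79a (right) against those of Jchain, each point a spleen numbered by replicate. Igkc and Jchain rank the 10 samples identically (rho = 1); Cd79a follows less tightly (rho = 0.88).

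Of 19 surface and receptor genes other than the members, 4 passed as higher and 1 as lower, where 36.1% of all genes tested passed. Ly86, which encodes MD-1, rose to 143 ± 54.5 from 50.7 ± 8.30 normalized counts (SD, n = 5 each; limma adjusted p = 0.00223), and Cd40 rose by 1.03 (limma adjusted p = 0.0112), a call lost with the exact rank-sum test (adjusted p = 0.0512). Siglecg rose by 0.64 (limma adjusted p = 0.0458), a call lost in 7 of 10 fits without 1 sample. Genes found mainly on B cells, such as Fcer2a, Fcmr, Cxcr5 and Tnfrsf13c, had log2 differences between -0.35 and 0.02, none past the threshold.

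Of 15 receptor signalling genes, 5 passed as higher and 2 as lower, where 36.1% of all genes tested passed. The adaptor gene Blnk rose by 1.09 (limma adjusted p = 0.00821), and its groups did not overlap. Ifitm1 rose by 1.05 and the kinase gene Lyn by 0.89 (limma adjusted p = 0.00663 and 0.00177). The call of Ifitm1 was lost with the exact rank-sum test (adjusted p = 0.0512). Which cell types carried the rises of Blnk, Ifitm1 and Lyn was not tested. Btk, the kinase downstream of the receptor, had 173 ± 46.2 normalized counts in the labelled Sirt1-deleted group and 168 ± 45.7 in the control group (SD, n = 5 each).

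Of 15 transcription factor genes, 2 passed as higher and 5 as lower, where 36.1% of all genes tested passed. Spi1, which encodes PU.1, rose by 1.33 (limma adjusted p = 0.00145). Ikzf3, which encodes Aiolos, fell from 12720 ± 1812 to 6578 ± 1342 normalized counts (log2 difference -0.96, limma adjusted p = 4.81e-04), and Bach2, at a locus marked as overlapping, fell by 0.92 (limma adjusted p = 0.0129; exact rank-sum adjusted p = 0.0823). Both are also expressed by T cells, and the part of each cell type in these falls was not tested. For scale, the 8 B cell genes other than Ighm together held 693 to 1373 normalized counts in labelled Sirt1-deleted samples and 772 to 1105 in controls, without correction for length.

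Of 9 tested precursor genes, Bst1 rose by 0.70 (limma adjusted p = 0.00704), Il7r fell by 0.95 (limma adjusted p = 0.00102) and Rag1 fell by 0.61 (limma adjusted p = 0.0344), genes shared with T cell precursors or myeloid cells. Rag1 lost its call in 7 of 10 fits without 1 sample, and its locus, like that of Mef2b below, overlaps another. Vpreb3 and Igll1 were below the filter. Vpreb1, of the same list, was tested and was low, with means of 13.6 normalized counts in labelled Sirt1-deleted samples and 10.9 in controls. Its log2 difference of 0.28 did not pass (limma adjusted p = 0.489). Of 6 tested germinal centre genes, Fas rose by 0.32, Mef2b fell by 0.83 and S1pr2 fell by 0.48 (limma adjusted p = 0.0153, 0.00420 and 0.00229). Beside the counts of both lists, 36.1% of all genes tested passed.

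**Figure D5:**
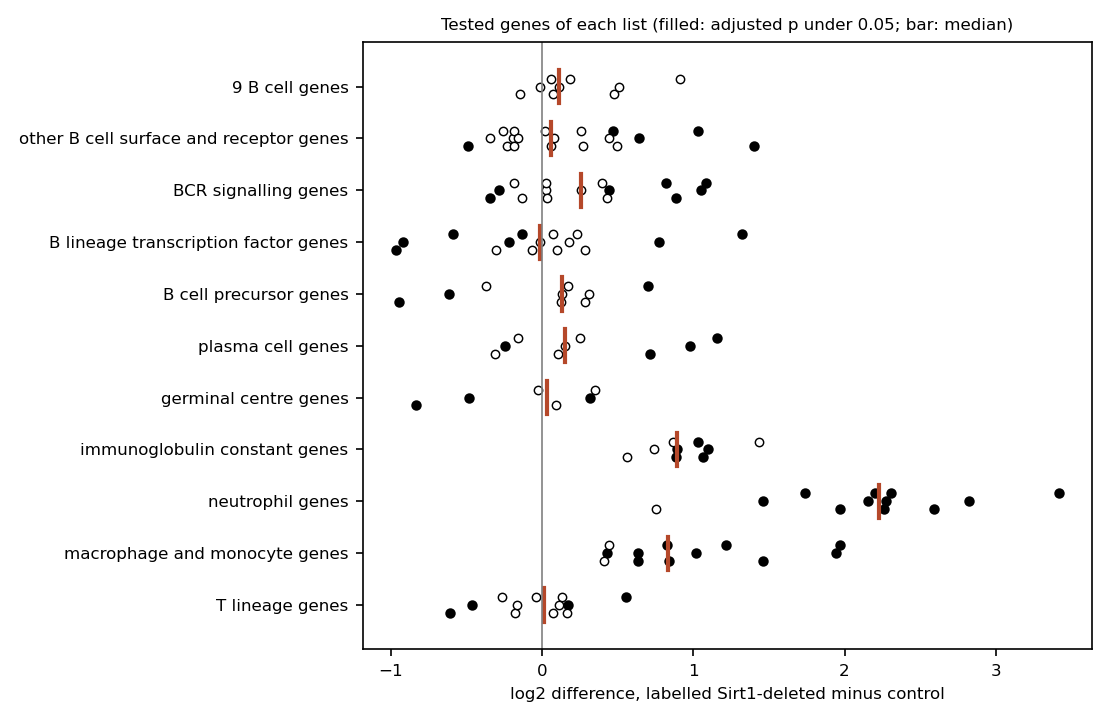
Log2 difference (horizontal axis) of every tested gene of 11 lists, with filled points for an adjusted p under 0.05 and a bar at the median of each list. The 9 B cell genes are all open, whereas immunoglobulin constant genes (median 0.89), neutrophil genes (2.23) and macrophage and monocyte genes (0.83) all lie above 0.

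Markers of myeloid cells moved with the group as well. Of 12 neutrophil genes 11 passed as higher, and their summed normalized counts were 28521 to 97946 in labelled Sirt1-deleted samples and 9007 to 12453 in controls. Of 12 macrophage and monocyte genes 10 passed as higher, with sums of 7235 to 12851 and 3496 to 3952. No gene of either list was at 0 in all samples. For comparison, 36.1% of all genes tested passed, 16.8% as higher. Myeloid cells also express Spi1, Lyn, Ly86, Cd40 and Bst1, and the part of these cells in the differences of those genes, and of the immunoglobulin genes, was not tested. Of 7 plasmacytoid dendritic cell genes, 5 were tested and Bst2 and Siglech passed as higher; of 10 erythroid and 6 tested NK cell genes none passed (limma; 1 erythroid gene and 0 NK cell genes at an unadjusted p under 0.05).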

How the data were processed

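RNA from 10 leukemic spleens was sequenced from strand-specific libraries, per the labels' protocols. The submitters' processing notes name kallisto 0.44.0, DESeq and the build mm10. The deposited values are a signal, counts per gene divided by DESeq factors by the authors, per the table's own name and the processing notes, and not raw counts; which annotation was used, and whether genes were removed, is not given in the sources used here. Low values lay within 0.1 of a whole read for 70.9% to 73.9% of values, so count models were not used; from their spacing, sequencing depth was put at roughly 31.3 to 38.2 M reads, and no counting intervals were derived.

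Genes with a mean of at least 10 (15276) were analysed as log2(value + 1) with limma 3.58.1 in R 4.3.3 (group as the only term, intensity trend), a script tested on simulated data, with Benjamini-Hochberg adjustment over all of them at 0.05. Adding 1 understates changes of low genes. Ratios were compared by exact permutation over 252 assignments, and pairs of genes by 100000 permutations. Named are the 9 genes, Sirt1, Igkc, Jchain, per list up to 3 genes past the threshold with the largest change, and the 10 genes most like the 9; other listed genes are named with values as needed, chosen after these were seen. Transcript lengths and positions came from GENCODE M21 (mm10), promoters from RefSeq GRCm38.p6. The genes and lists were chosen with earlier results of these data known. Some results named by this rule are not reported here. Alternatives changed pseudocount, filter, scaling, test and samples.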

Additional observations from a re-analysis of the deposited data

Results flagged for a closer look

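In 88 sets of 5 samples (the genes named by rule and the 2 ratios, per group), an end sample stood off from the next one by more than 0.71 of the set's range in 4, where chance at 1 in 20 gives 4.4. Control replicate 3 was high for Pax5, at 68.4 normalized counts against 39.2 to 46.3 in the other controls (ratio 0.755). Control replicate 2 was high for Ikzf3, at 15900 against 11437 to 12388 (ratio 0.787). Control replicate 4 was low for Rag1, at 4185 against 5190 to 5443 (ratio 0.798). Labelled Sirt1-deleted replicate 7 was high for Bach2, at 236 against 110 to 143 (ratio 0.738).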

How the results depend on the processing

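No paired analysis was possible because no replicate number occurs in both arms. The number of B cell genes past the threshold stayed 0 under 9 of 10 alternatives using every sample and was 1 with sample weights (Pax5). It ranged from 0 to 2 when each sample was left out (Cd79a and Pax5 without labelled Sirt1-deleted replicate 10, Ebf1 without 11, Pax5 without control replicate 3). The number of other B lineage genes was 20 with the exact rank-sum test, 31 to 38 under the other alternatives and 28 to 37 without 1 sample. The shares of all genes tested that passed were 24.0% with the exact rank-sum test, 25.5% to 43.6% under the other alternatives and 27.5% to 41.1% without 1 sample. Quantile normalization turned the log2 differences of Cd79b (-0.10) and Cd22 (-0.10) negative, sample weights that of Cd22 (-0.0123), and upper-quartile rescaling, which moved the median of all genes to 0.06, turned that of Ms4a1 positive (0.0476). Without 1 sample, ranges spanned 0 for Cd79b (-0.0938 to 0.301), Ms4a1 (-0.258 to 0.0882), Cr2 (-0.39 to 0.10), Cd22 (-0.13 to 0.31) and the log2 ratio of Ighd to Ighm (-0.0467 to 0.178); the cause was not tested. The log2 ratio of Cd79b to Cd79a kept its sign and an exact permutation p of at most 0.0397 in all of its alternatives (-0.52 to -0.36 without 1 sample). With minimum mean 50, Ebf1 was not tested. The transcript length used was an alternative added after the data were seen.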

Other observations

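Immunoglobulin variable segments were read by the start of their symbols, a choice made after values were seen. The 79 heavy chain segments (Ighv) together held 465 to 1324 normalized counts in labelled Sirt1-deleted samples and 605 to 1428 in controls (log2 difference of the sums 0.01, exact two-sided permutation p = 0.992), and of 31 tested 0 passed in limma (0 at an unadjusted p under 0.05). The 81 kappa segments (Igkv) held 849 to 2206 and 803 to 1669 (0.27, exact permutation p = 0.381), with 3 of 40 tested higher. Among all genes tested, 36.1% passed in limma, 16.8% as higher. The 3 lambda segments (Iglv) held 241 to 430 and 143 to 319 (0.59, exact permutation p = 0.0397; adjusted over the 3 sums, p = 0.119). In no sample did a single segment hold more than 12.3% of the Ighv sum or 12.5% of the Igkv sum.

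Constant and variable sums are given side by side per kb as a description only: germline transcripts of constant genes carry no variable segment, so no fixed ratio is assumed. Per kb, Ighm alone was 3.08 to 8.58 times the Ighv sum, with 5.66 ± 1.71 in labelled Sirt1-deleted samples and 5.27 ± 1.32 in controls. The other heavy chain constant genes (Ighd, Ighg1, Ighg2b, Ighg2c, Ighg3 and Igha) together were 1.16 ± 0.42 and 0.69 ± 0.08 times that sum. Igkc was 2.50 ± 0.76 and 1.43 ± 0.16 times the Igkv sum (all SD, n = 5 each).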
